A study of Caenorhabditis elegans with 12 samples.

Results

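The 9 genes described here, dpy-4, dpy-5, dpy-13, dpy-17, sqt-1, sqt-3, rol-6, bli-1 and bli-2, code for cuticle collagens of the nematode Caenorhabditis elegans. They were chosen by name, as collagens known from dumpy, squat, roller and blister mutants, and the 6 furrow collagens of the dpy class were set apart as a separate list. The 9 genes carried 11 of the 22548 probe sets tested, out of 17118 genes with a probe set of their own. Wild-type N2 (Bristol) animals, 12 h old at the start, spent 48 h in aged silver nanoparticles, which the series title calls sulfidized, in pristine silver nanoparticles, in silver nitrate (AgNO3) or in control solution. There were 3 arrays per group and 12 in all, and no group carried a mutation or a transgene. The silver solutions were chosen to act alike on reproduction, each at its own 30% effect concentration (EC30), and the doses were not used here. RNA came from whole populations of 2000 to 3000 animals, so fewer epidermal cells and less collagen RNA per cell cannot be told apart. The comparisons ask which genes respond to aged particles and how that response differs from those to pristine particles and to dissolved silver.

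The cuticle of C. elegans is a collagen matrix that the epidermis secretes anew at each molt. Its collagens are short chains with Gly-X-Y repeats that assemble as trimers, and their genes are switched on in waves within each molting cycle. Loss or alteration of single collagens changes the shape of the whole animal, because the cuticle serves as its external skeleton. Animals with a dumpy mutation are short and fat, those with a squat or roller mutation are shortened or twisted about their long axis, and those with a blister mutation have fluid-filled swellings where the layers of the adult cuticle part.

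All levels below are log2 signals of single probe sets after each array was scaled to a common median, with signals under 16 set to 16 (4 on the log2 scale). A probe set was called changed at a Benjamini-Hochberg adjusted p under 0.05 from limma, adjusted over all 22548 probe sets. Signals of different probe sets depend on their probes and were not compared with each other. The suffix of a probe set's name bears on its reading: by the array maker's convention, probe sets ending in x_at hold probes that may also bind other transcripts, and those ending in s_at hold probes shared between related transcripts. The probe sets of dpy-4 (172809_x_at) and dpy-13 (172895_x_at) and the brighter one of sqt-3 (172820_x_at) are of the first kind, and those of dpy-5, sqt-1 and the brighter one of bli-1 are of the second. Array medians of the deposited intensity lay between 119 and 135, arrays of the same group correlated over all probe sets at 0.974 to 0.982 and arrays of different groups at 0.968 to 0.983, and 3 array control genes gave 3-prime minus 5-prime log2 differences of 1.16 to 2.01 for actin, 1.3 to 2.08 for catalase and 0.15 to 0.41 for Gapdh. Catalase lay higher on the aged arrays (1.75, 1.85 and 1.90) than on the pristine arrays (1.61, 1.43 and 1.3), with 1.32 to 2 on control arrays, and the part of RNA integrity in the collagen differences was not tested. The labels do not say whether replicates were separate cultures, so p-values measure only the spread between these samples, which may be technical.

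In none of the comparisons did any of the 9 genes pass the threshold, and dpy-4 and sqt-3 were the members whose aged-particle arrays lay above all 9 other arrays. Over all probe sets, 1.1% had their 3 aged-particle arrays above all others. The collagen dpy-4, whose loss gives short, fat animals, had log2 signals of 12.64, 12.98 and 12.60 in aged-particle animals, 11.99, 12.38 and 11.98 in pristine-particle animals, 11.78, 12.34 and 12.07 in silver nitrate animals, and 12.21, 12.09 and 11.87 in control animals. The lowest aged-particle array thus lay above the highest array of each other group, while the arrays of the other 3 groups overlapped. Its mean was 12.74 ± 0.21 with aged particles and 12.06 ± 0.17 in control (SD, n = 3 arrays each). That is 1.61-fold, a log2 difference of 0.68 ± 0.18 SE with a 95% interval of 0.28 to 1.09 (limma adjusted p = 0.353). Against pristine particles the difference was 0.63 ± 0.18 SE (adjusted p = 0.262) and against silver nitrate 0.68 ± 0.18 SE (adjusted p = 0.191). Neither pristine particles (0.06, 95% interval −0.34 to 0.46) nor silver nitrate (0.01, −0.40 to 0.41) moved dpy-4 by an amount detectable with these arrays.

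The gene sqt-3, one of the earliest collagens made in development, has alleles that give dumpy, squat or roller animals. On its brighter probe set the aged-particle arrays had log2 signals of 13.18, 13.62 and 13.29, the pristine arrays 12.37, 12.64 and 12.52, the silver nitrate arrays 12.75, 12.98 and 12.38, and the control arrays 12.78, 12.21 and 12.66. All 3 aged-particle arrays lay above the 9 others, and the other groups overlapped. The log2 difference between aged particles and control was 0.81 ± 0.20 SE (1.75-fold, 95% interval 0.36 to 1.26, adjusted p = 0.312), and that between aged and pristine particles was 0.85 ± 0.20 SE (1.81-fold, adjusted p = 0.170). Against silver nitrate the aged-particle arrays were 0.66 ± 0.20 SE higher (adjusted p = 0.244).

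The dimmer sqt-3 probe set (174910_at), which has no suffix for shared probes, gave the same direction with a wider spread. Its log2 signals were 10.21, 11.24 and 10.08 with aged particles, 8.80, 9.63 and 8.96 with pristine particles, 9.90, 11.53 and 9.24 with silver nitrate, and 9.62, 9.54 and 9.83 in control. Here silver nitrate replicate 2 was the highest of the 12 arrays, so the aged-particle arrays lay above the control and pristine arrays but not above the silver nitrate arrays. The difference between aged particles and control was 0.85 ± 0.55 SE (adjusted p = 0.746), and between aged particles and silver nitrate it was 0.29 ± 0.55 SE (adjusted p = 0.943). The 2 sqt-3 probe sets correlated at r = 0.77 over the 12 arrays.

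Mutants of dpy-5 and dpy-13 are also dumpy, and both collagens belong to the group found in the ring-like annuli of the cuticle. The signal of dpy-13 was 14.42, 14.62 and 14.31 in aged-particle animals, 13.32, 14.21 and 13.86 in pristine-particle animals, 13.66, 14.03 and 14 in silver nitrate animals, and 13.99, 14.33 and 14.24 in control animals. Its aged-particle arrays lay above every pristine and silver nitrate array but overlapped with control, and the means ordered as aged (14.45), control (14.19), silver nitrate (13.90) and pristine (13.80). Arrays of neighbouring groups in this order overlapped. The difference was 0.65 ± 0.21 SE between aged and pristine particles (1.57-fold, adjusted p = 0.323) and 0.55 ± 0.21 SE between aged particles and silver nitrate (adjusted p = 0.377).

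The signal of dpy-5 was 9.59, 10.01 and 9.30 with aged particles, 9.18, 8.99 and 9.14 with pristine particles, 9.34, 9.94 and 8.79 with silver nitrate, and 9.32, 8.81 and 9.09 in control. Aged-particle arrays lay above the pristine arrays, and overlapped with the control and silver nitrate arrays. The silver nitrate arrays spread over 1.15 on the log2 scale, against 0.18 for the pristine arrays. The difference between aged particles and control was 0.56 ± 0.28 SE (95% interval −0.09 to 1.20, adjusted p = 0.667).

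**Figure D1:**
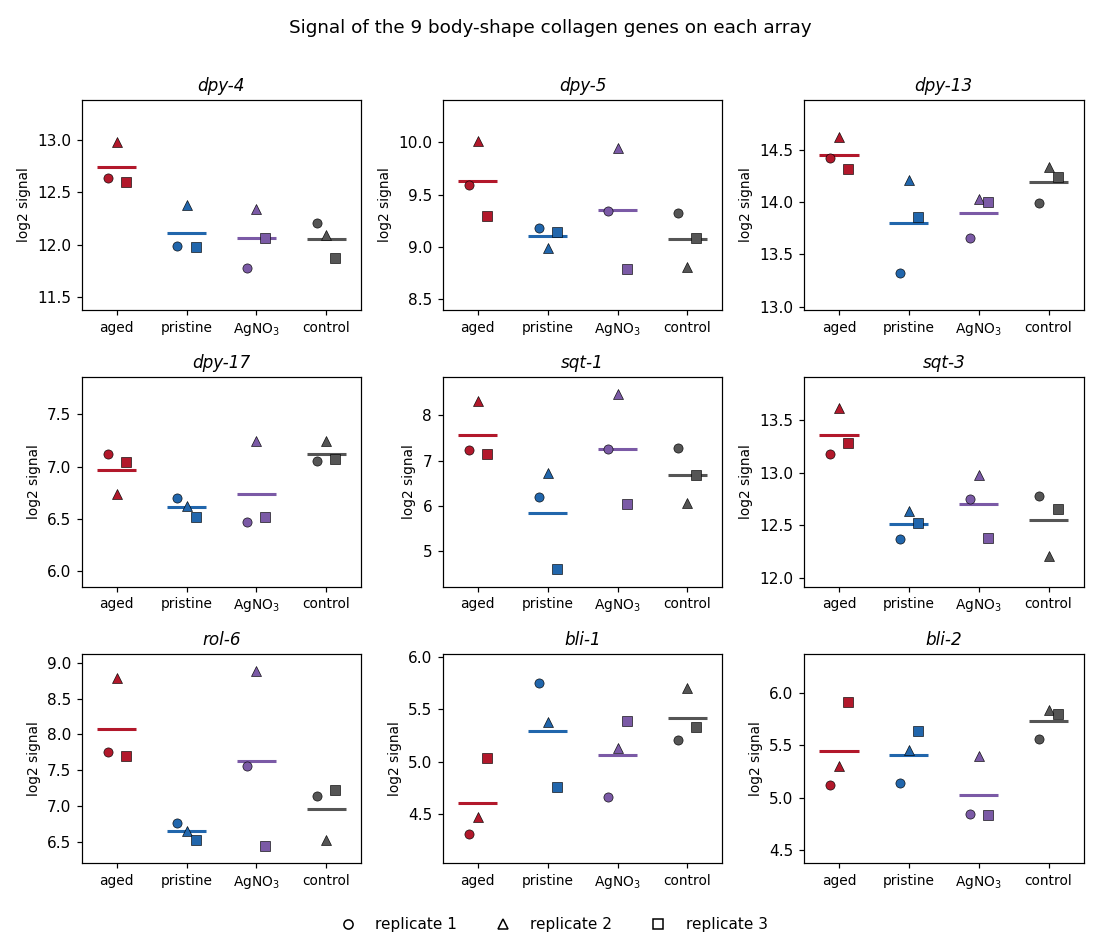
Log2 signal of the probe set that stands for each of the 9 genes (y axes, each with its own range) on every array, by group (x axis); symbols mark the replicate number and bars the group mean of 3 arrays. In dpy-4 and sqt-3 the aged-particle arrays lie above all 9 others, and in dpy-5, sqt-1 and rol-6 the second silver nitrate array stands near the second aged-particle array.

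The product of dpy-17 is known to work with SQT-3, and its loss gives dumpy animals. Its aged-particle arrays, unlike those of sqt-3, overlapped with control. Its signals were 7.12, 6.74 and 7.04 with aged particles, 6.70, 6.62 and 6.52 with pristine particles, 6.47, 7.24 and 6.52 with silver nitrate, and 7.05, 7.24 and 7.07 in control. The pristine arrays all lay below the control arrays, and 5.98% of all probe sets showed such a gap in that direction. The mean was 6.61 ± 0.09 with pristine particles and 7.12 ± 0.11 in control (SD, n = 3 arrays each), a log2 difference of −0.51 ± 0.19 SE (95% interval −0.95 to −0.07, adjusted p = 0.512). Silver nitrate replicates 1 and 3 lay as low as the pristine arrays, while replicate 2 equalled the highest control array. With that array and aged replicate 2 left out of the fit, the silver nitrate difference from control was −0.63 (adjusted p = 0.120), against −0.38 with all arrays (adjusted p = 0.483). These arrays were picked after the data were seen, and leaving out the highest silver nitrate array can only widen a difference in this direction.

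The collagens sqt-1 and rol-6 are known from roller and squat mutants and act together: altered rol-6 twists the animal only where sqt-1 is intact. Both spread most among replicates. The signal of rol-6 was 7.75, 8.78 and 7.70 with aged particles, 6.77, 6.66 and 6.53 with pristine particles, 7.56, 8.88 and 6.45 with silver nitrate, and 7.14, 6.53 and 7.23 in control. All aged-particle arrays lay above the control and pristine arrays, while the silver nitrate arrays ran from below every array of the other groups to above them. The difference between aged particles and control was 1.11 ± 0.55 SE (2.15-fold, 95% interval −0.14 to 2.35, adjusted p = 0.657), and between aged and pristine particles it was 1.42 ± 0.55 SE (2.68-fold, adjusted p = 0.413).

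For sqt-1 the signals were 7.23, 8.32 and 7.15 with aged particles, 6.19, 6.73 and 4.60 with pristine particles, 7.25, 8.46 and 6.03 with silver nitrate, and 7.28, 6.06 and 6.69 in control. The aged-particle arrays lay above the pristine arrays alone, where the difference was 1.72 ± 0.72 SE (3.31-fold, 95% interval 0.09 to 3.36, adjusted p = 0.461). Pristine replicate 3 was close to the floor of 4. The silver nitrate arrays spanned 2.43 on the log2 scale in sqt-1 and 2.44 in rol-6, more than the distance between any pair of group means of either gene.

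The genes bli-1 and bli-2 code for collagens of the struts, the pillars that join the layers of the adult cuticle, and their loss lets those layers blister apart. Both were dim here. The brighter bli-1 probe set (174152_s_at) lay at 4.31, 4.47 and 5.04 with aged particles, 5.75, 5.38 and 4.76 with pristine particles, 4.66, 5.13 and 5.39 with silver nitrate, and 5.21, 5.70 and 5.33 in control. Its aged-particle arrays lay below the control arrays, a gap in that direction that 6.7% of all probe sets showed. It was the 1 member for which the aged-particle mean was below that of every other group (−0.81 ± 0.30 SE against control, 95% interval −1.49 to −0.13, adjusted p = 0.518). The other bli-1 probe set (190348_at) lay at the floor on all 12 arrays and gives no value.

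The bli-2 signal was 5.12, 5.30 and 5.91 with aged particles, 5.14, 5.46 and 5.64 with pristine particles, 4.85, 5.40 and 4.84 with silver nitrate, and 5.56, 5.84 and 5.80 in control. The silver nitrate arrays lay below the control arrays, as did those of 8.03% of all probe sets, while aged and pristine arrays overlapped with control. The silver nitrate difference from control was −0.70 ± 0.23 SE (95% interval −1.23 to −0.17, adjusted p = 0.268). Genes of the adult stage, taken as the collagen col-19 and 5 measured yolk protein genes of the vit class, were also lowest with silver nitrate. Averaged over the list and set against the control mean, they lay at −0.68, −0.74 and −0.72 on the silver nitrate arrays, −0.28, −0.31 and −0.25 on the aged-particle arrays, −0.37, −0.45 and −0.28 on the pristine arrays, and −0.11 to 0.15 on the control arrays. Within silver nitrate these values were alike, while bli-2 was higher on replicate 2. None of the 6 was called, and 2, 4 and 3 of them were at the floor on the silver nitrate arrays. The gene col-19 was at the floor on 2 arrays and lay at a mean of 4.31 with silver nitrate and 6.05 in control (adjusted p = 0.105), and their part in the bli-2 values was not tested.

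Read comparison by comparison, most of the 9 genes lay higher with aged particles, none past the threshold, and the medians of the unaged forms were −0.31 and 0.01. Against control, limma called 0 of 9 with aged particles, where 0.00887% of all probe sets were called. Of the 9, 6 lay higher, 2 higher and 1 lower at an unadjusted p under 0.05 (8.25% of all probe sets in either direction), and the median log2 difference was 0.56, against −0.03 over all probe sets. Arrays did not overlap for dpy-4, sqt-3 and rol-6 on the higher side (4.37% of all probe sets) and for bli-1 on the lower side (6.7%). Without aged replicate 2 the median was 0.37. With pristine particles 0 of 9 were called (0.00443% of all probe sets), 7 lay lower, 1 had an unadjusted p under 0.05 (8.63%), and the median was −0.31, against 0 over all probe sets. Arrays did not overlap for 0 genes on the higher side (5.33%) and for dpy-17 on the lower side (5.98%). With silver nitrate 0 of 9 were called (0.133%), 4 lay lower, 1 had an unadjusted p under 0.05 (12.3%), and the median was 0.01, against −0.01 over all probe sets. Arrays did not overlap for 0 genes on the higher side (6.05%) and for bli-2 on the lower side (8.03%). The pristine median was −0.04 with a floor of 64 and also over the 5 members above median brightness, and −0.18 without pristine replicate 1. The silver nitrate median was −0.13 when its replicate 2 was left out, 0.13 when its replicate 1 was left out and 0.16 with quantile normalisation, so it has no settled sign.

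**Figure D2:**
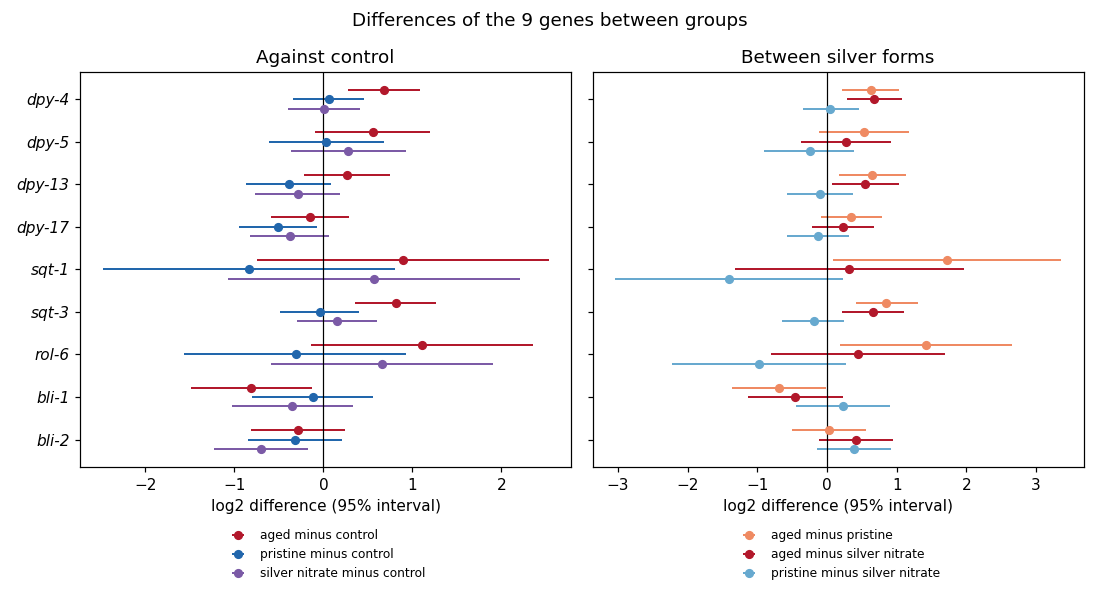
Log2 differences of each gene (rows) with 95% intervals from the limma fit of all 12 arrays (x axis), against control in the left panel and between silver forms in the right panel. For aged particles against control the intervals of dpy-4 and sqt-3 lie above 0 (0.28 to 1.09 and 0.36 to 1.26). That of bli-1 lies below 0 (−1.49 to −0.13). So do those of dpy-17 with pristine particles (−0.95 to −0.07) and bli-2 with silver nitrate (−1.23 to −0.17). The intervals are not adjusted for the number of probe sets, and none of these genes was called. The intervals of sqt-1 and rol-6 are the widest.

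Between aged and pristine particles 0 of 9 were called by limma (0.111% of all probe sets), 8 lay higher with aged particles, and the median was 0.63, against −0.03 over all probe sets. In 7 of the 9 the arrays did not overlap, all higher with aged particles, as did 6.85% of all probe sets, and 8.77% did so on the lower side. At an unadjusted p under 0.05, 5 lay higher and bli-1 lower (10.3% in either direction). Between aged particles and silver nitrate 0 of 9 were called (0.253%), 8 lay higher, 3 had an unadjusted p under 0.05 (11%), and the arrays of dpy-4, dpy-13 and sqt-3 did not overlap (7.49% of all probe sets on the higher side and 7.73% on the lower). The dimmer sqt-3 probe set overlapped there, and the median was 0.42. Leaving out the third silver nitrate array gave 0.12, and leaving out the second gave 0.62. Between pristine particles and silver nitrate 0 of 9 were called (0.00443%), none had an unadjusted p under 0.05 (9.54%) or arrays that did not overlap (7.77% of all probe sets higher and 5.75% lower), and the median was −0.13.

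Setting the aged-particle arrays against both unaged forms at once gave the smallest p-values for dpy-4, dpy-13 and sqt-3. None was called (0.284% of all probe sets), 8 lay higher, and dpy-4, dpy-13 and sqt-3 had arrays above all 6 unaged arrays (2.73% of all probe sets, with 2.37% below) and an unadjusted p under 0.05 (10.9%). The log2 difference was 0.65 ± 0.15 SE for dpy-4 (1.57-fold, 95% interval 0.30 to 1.00, adjusted p = 0.153) and 0.76 ± 0.17 SE for sqt-3 (1.69-fold, 95% interval 0.37 to 1.14, adjusted p = 0.135). For dpy-13 it was 0.60 ± 0.18 SE (1.52-fold, adjusted p = 0.272). All of these values come from probe sets ending in x_at, whose probes may also bind other transcripts. On the dimmer sqt-3 probe set the arrays overlapped in this comparison (0.83 ± 0.48 SE, limma adjusted p = 0.59). When the fit was limited to the 11274 probe sets above median brightness, which holds 5 of the 9 members, dpy-4 (adjusted p = 0.0491) and sqt-3 (adjusted p = 0.0317) were called here, with 1.31% of the probe sets in that fit, and sqt-3 (adjusted p = 0.0447) between aged and pristine particles, with 0.949%. The test of any difference between the 4 groups called none of the 9 (0.0621% of all probe sets), with sqt-3 (adjusted p = 0.200) and dpy-4 (adjusted p = 0.231) lowest, and these had an unadjusted p under 0.05 (12.9%).

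Part of the replicate spread was shared by several members and lay in 2 arrays. Aged replicate 2 was the highest array of its group in 6 of the 9 genes and silver nitrate replicate 2 in 8 of the 9, where these arrays were the highest of their group in 30.8% and 25.9% of all probe sets. In rol-6 they read 8.78 and 8.88; the next highest array was aged replicate 1 at 7.75. Other spread lay elsewhere: the pristine arrays spanned 2.13 in sqt-1, 0.89 in dpy-13 and 0.99 in bli-1. Silver nitrate replicate 2 also had the lowest 3-prime minus 5-prime difference for actin (1.16) and the highest for catalase (2.08), whose part in these values was not tested. The 9 genes, averaged and set against control, lay at 0.18, 0.56 and 0.28 on the aged-particle arrays, −0.26, −0.08 and −0.47 on the pristine arrays, −0.16, 0.51 and −0.37 on the silver nitrate arrays, and 0.08, −0.11 and 0.02 on the control arrays. With both of these arrays left out, limma still called none of the 9, and the median was 0.37 for aged particles against control, 0.51 against pristine particles, 0.59 against silver nitrate and 0.55 against both unaged forms. For dpy-4 and sqt-3 the differences from control were then 0.57 (adjusted p = 0.536) and 0.68 (adjusted p = 0.527), and the silver nitrate differences from control were −0.01 for dpy-5, −0.04 for sqt-1 and 0.03 for rol-6.

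Genes of the molting cycle, 16 measured, followed the same arrays. Averaged and set against control, they lay at 0.39, 0.71 and 0.38 on the aged-particle arrays, −0.37, −0.13 and −0.11 on the pristine arrays, 0.00, 0.49 and −0.29 on the silver nitrate arrays, and 0.13, −0.07 and −0.07 on the control arrays. None of the 16 was called against control. The protease inhibitor bli-5, whose loss blisters the cuticle, was called between aged particles and each unaged form. Its limma adjusted p was 0.0496 against pristine particles (0.111% of all probe sets called) and 0.018 against silver nitrate (0.253%). It lay at the floor on all 9 other arrays (mean 5.27 with aged particles, 4 in each other group, at least 2.42-fold higher). Its log2 difference (1.27) and unadjusted p (2.26e-05) were therefore the same against control, where the adjusted p was 0.11. Groups at the floor add no spread to the fit, so these p-values of bli-5 are likely too small. Of 6 measured epidermis markers, 3 lay higher and 3 lower with aged particles than in control (median 0.03, from −0.18 to 1.63), none was called, and none was at the floor on any array. Their mean was highest within its group on aged replicate 2 (0.64) and silver nitrate replicate 2 (0.37). It includes wrt-10, which had the widest differences, with means of 8.04 with aged particles, 5.08 with pristine particles, 6.82 with silver nitrate and 6.42 in control, while elt-3 (−0.18) and tdo-2 (−0.10) lay lower with aged particles than in control. Of 8 body wall muscle markers, all lay higher with aged particles than in control (0.45, 0.37 and 0.06 on the 3 aged-particle arrays, −0.24 to 0.15 on the others), with none called. All 7 germline markers lay higher than control in each exposure (medians 0.39 with aged particles, 0.64 with pristine particles and 0.68 with silver nitrate), and so did all 4 pharynx markers (0.20, 0.20 and 0.36), again with none called. The mean of the germline markers overlapped between aged-particle arrays (0.16 to 0.69) and control arrays (−0.25 to 0.37). The pristine arrays (0.54 to 0.71) and silver nitrate arrays (0.64 to 0.96) lay above every control array. Intestine and neuron markers had medians between −0.17 and 0.16. The part of these genes in the collagen values was not tested.

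**Figure D3:**
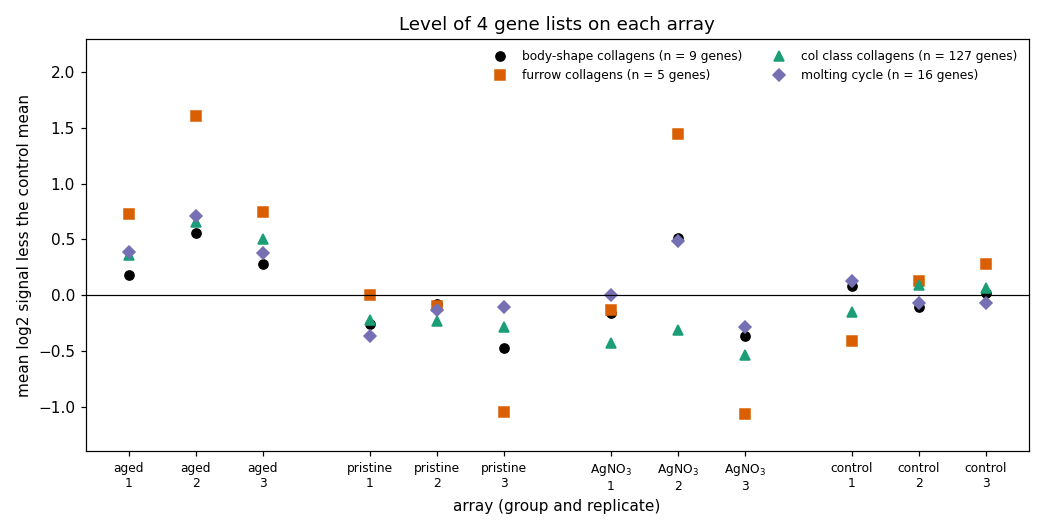
Mean log2 signal of the genes of 4 lists, less the control mean of each gene (y axis), on each of the 12 arrays (x axis). Furrow collagens reach 1.61 on aged replicate 2 and 1.45 on silver nitrate replicate 2, where the body-shape collagens reach 0.56 and 0.51, while the col class stays below 0 on all silver nitrate arrays.

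Among themselves, dpy-5, sqt-1, sqt-3 and rol-6 varied together over the 12 arrays. The 6 pairs of these genes had r between 0.73 and 0.95, and between 0.74 and 0.95 after each group's mean was removed, so the likeness was there within groups too. Without aged replicate 2 and silver nitrate replicate 2 the 6 pairs had r between 0.52 and 0.88 over 10 arrays, and between 0.46 and 0.85 after group means were removed. These genes were not set apart in advance, so their high r partly reflects the choice. Of the other pairs, dpy-4 with sqt-3 gave 0.82 over the 12 arrays and 0.45 after group means were removed. The highest value was that of dpy-5 and rol-6 (0.95). By contrast dpy-13 correlated with dpy-5 and rol-6 at −0.03 and 0.07 once group means were removed, while dpy-4 and dpy-13 gave 0.59. Over all 12 arrays bli-1 had r below 0 with 6 of the other 8 members (from −0.73 with sqt-3 to 0.25 with bli-2), but after group means were removed its r was −0.42 with sqt-3 and 0.15 with dpy-4 (−0.48 over all arrays). These values describe 12 arrays that share their scaling and, within a group, their exposure.

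**Figure D4:**
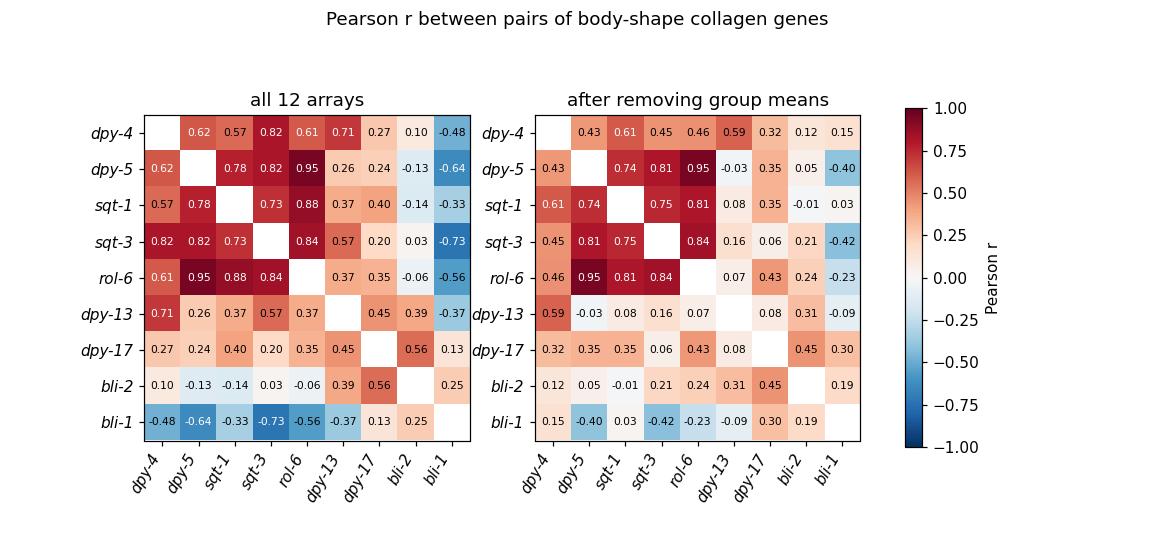
Pearson r for each pair of the 9 genes over all 12 arrays (left) and after subtracting each group's mean (right), coloured from −1 (blue) to 1 (red). The block of dpy-5, sqt-1, sqt-3 and rol-6, which was not set apart in advance, keeps r of 0.74 to 0.95 in the right panel. In the left one bli-1 has values below 0 with 6 of the other 8 genes.

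The genes whose signal followed the mean of the 9 most closely, among 12266 genes above the floor on every array, were noah-1 and lpr-3 (both r = 0.96 over 12 arrays), col-104 and F44E2.4 (both 0.93), bus-24, F56D2.3 and ZC434.9 (each 0.92) and Y102A11A.5 (0.91). The first pair code for proteins of the apical extracellular matrix and were on the molting cycle list. Closest to dpy-4 were col-95 (0.95), test-1 (0.93) and col-34 (0.92), and closest to sqt-3 were col-97 and abu-14 (both 0.95) and phat-5 (0.94). The cuticlin gene cut-2 was among the 3 closest to both sqt-1 (0.92) and rol-6 (0.95). Beside it stood wrt-1 (0.95) and col-90 (0.94) for rol-6, and F41D9.2 (0.95) and C02E7.6 (0.91) for sqt-1. For dpy-5 the 3 closest were K10D3.4 and T19B10.2 (both 0.92) and emb-9 (0.91), which codes for a collagen of basement membranes and not of the cuticle. Those of dpy-13 were R09D1.12 (0.88), Y45F10B.13 and sulp-4 (both 0.87), and those of dpy-17 were rhi-1 and hex-5 (both 0.88) and K01A2.5 (0.86). Those of bli-1 were C05C12.6 (0.87), C05C10.2 (0.86) and B0432.10 (0.85), and those of bli-2 were npr-1 (0.89), unc-39 (0.87) and R05G6.1 (0.85). Each is among the highest of 12266 values of r over 12 arrays, so part of its height comes from the choice. No test against chance was made. Without aged replicate 2 and silver nitrate replicate 2 these r ran from 0.72 (T19B10.2 with dpy-5) to 0.95 (col-104 with the mean of the 9).

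In the RefSeq gene table of assembly WBcel235, 4 of the 9 genes lie on chromosome II, and 2 of the 9 have a col class collagen as the next protein-coding gene. The neighbour of dpy-13, col-34, had log2 differences of 0.59 with aged particles, −0.17 with pristine particles and −0.07 with silver nitrate against control (adjusted p = 0.569, 0.918 and 0.981), and r = 0.66 with dpy-13. Both genes are read by probe sets ending in x_at, whose probes may also bind other transcripts, and the part of this in r was not tested. The neighbour of bli-1, col-80, had differences of 0.31, −0.27 and −0.41 (adjusted p = 0.699, 0.754 and 0.387), and r = −0.40 with bli-1. With aged particles bli-1 (−0.81) and col-80 lay on opposite sides of control, and neither was called. With pristine particles (−0.12 for bli-1) and silver nitrate (−0.35 for bli-1) both genes lay below control.

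Other collagens lay on the same side as most of the 9, with larger differences in some. Of the furrow collagens, 5 of 6 were measured; all 5 lay higher with aged particles than in control (median 0.84) and none was called, as with dpy-2 (0.84, adjusted p = 0.756) and dpy-7 (0.85, adjusted p = 0.805). Among 4 further collagens known from body-shape mutants, rol-8 was called between aged particles and both unaged forms together (2.62, adjusted p = 0.0234; 0.284% of all probe sets) but not against pristine particles (adjusted p = 0.0639), silver nitrate (0.0535) or control (0.302), with means of 11.12 in aged-particle animals, 8.45 in pristine-particle animals, 8.57 in silver nitrate animals and 9.38 in control animals. Of 127 collagens of the col class, 1 was called higher with aged particles than in control (0.00887% of all probe sets called), 9 higher than with pristine particles (0.111%) and 16 higher than with silver nitrate (0.253%), with medians of 0.35, 0.44 and 0.58. Against control, 4 were called lower with silver nitrate (0.133%, median −0.22) and 0 with pristine particles by limma (0.00443%, median −0.19). At an unadjusted p under 0.05 against control, 41 lay higher and 3 lower with aged particles (8.25% of all probe sets in either direction). With pristine particles 1 lay higher and 13 lower (8.63%), and with silver nitrate 3 higher and 28 lower (12.3%). From 13 to 29 of the 127 were at the floor on each array. The gene called with aged particles against control, col-164, was at the floor on 8 arrays. Such arrays add little spread to the fit, so its p-value is likely too small. No test of the difference between these lists and the 9 genes was made.

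The enzymes and regulators around these collagens had medians nearer 0 than the 9 genes with aged and with pristine particles against control. With silver nitrate they did not, as the median of the 9 was 0.01. Of 8 genes for folding and modification of collagen, which include the prolyl hydroxylase subunits dpy-18 and phy-2, none was called in any comparison, and their median against control was 0.20 with aged particles, 0.14 with pristine particles and 0.12 with silver nitrate. All 8 lay higher with aged particles than in control, by at most 0.68. Between aged and pristine particles 4 lay higher, among them phy-2 (1.38, adjusted p = 0.293) and dpy-18 (0.71, adjusted p = 0.377), and 4 lower. The subunit phy-2 had log2 differences from control of 0.68 with aged particles, −0.70 with pristine particles and −0.17 with silver nitrate (adjusted p = 0.737, 0.728 and 0.950). Of 7 genes for cleavage and cross-linking none was called (medians −0.06, 0.01 and 0.03 in the same order), and the protease dpy-31, which cleaves SQT-3, lay at −0.03, −0.38 and −0.18 (adjusted p = 1, 0.466 and 0.650). Body size signalling through the Sma/Mab pathway, 11 genes measured, had medians of −0.02, −0.03 and −0.03 with none called, and the Smad gene sma-2 lay at −0.25, −0.70 and −0.42 (adjusted p = 0.681, 0.201 and 0.248). Epidermal transcription factors, 10 measured, had medians of 0.03, −0.08 and 0.06 with none called, and elt-3, a GATA factor of the epidermis, differed by −0.43 between aged particles and silver nitrate (adjusted p = 0.200). Of 6 genes of the larval to adult switch none was called; the period homolog lin-42 had means of 6.42 with aged particles, 4.46 with pristine particles, 5.13 with silver nitrate and 5.55 in control, with 2 arrays at the floor.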

How the data were processed

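Total RNA was labelled with biotin (100 ng per array) and hybridised to 1-colour Affymetrix arrays, per the labels. The deposited values were intensity on a linear scale for 22625 probe sets. The mean after trimming 2% from each end was 500.1 to 500.2 on every array, so the authors' deposited intensity values were already scaled; the summarisation method and software are not given in the sources used here. Array controls (77) were set aside.

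Intensities were brought to 1 shared median, with a floor of 16, and put on the log2 scale; relative to control this shifted aged and pristine arrays by −0.03 and silver nitrate arrays by −0.07. All 12 arrays entered 1 limma fit (limma 3.58.1, R 4.3.3; 8 residual and 0.94 prior degrees of freedom), tested on simulated data. Probe sets were named from the platform annotation and RefSeq. The brightest probe set stood for a gene. Named were all 9 members, at most 3 genes per list by smallest p of the test over the 4 groups, and the genes with the highest r over 12 arrays. The members and lists were chosen with earlier results of these data known. Detection calls were not used here, and the number of arrays limits the precision.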

Additional observations from a re-analysis of the deposited data

How the results depend on the processing

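The results were recomputed under 22 other settings: the deposited scaling, quantile normalisation, floors of 1 and 64, the dimmest 25% or all probe sets under median brightness removed, another variance prior, the compared groups alone, a replicate block, each array left out, and, chosen after the data were seen, aged replicate 2 and silver nitrate replicate 2 both left out. Of 175 counts of called members, 2 were above 0, both above median brightness (1 between aged and pristine particles, 2 between aged particles and both unaged forms); there the unadjusted p was lower too (sqt-3 0.00038 and 0.00031, dpy-4 0.000601), at unchanged differences. The pristine median against control moved to −0.04 there and to −0.04 with a floor of 64. With quantile normalisation sqt-3 was at 0.03 (pristine against control) and dpy-4 at −0.03 (pristine against silver nitrate). With both arrays left out, silver nitrate against control gave −0.13 for dpy-4, −0.01 for dpy-5 and −0.04 for sqt-1, and pristine against silver nitrate gave 0.04 for dpy-5 and 0.12 for dpy-17. Over the fits that left out 1 array, the median between aged particles and silver nitrate ranged from 0.12 to 0.62. Some differences changed sign in those fits, among them 0.57 for sqt-1 (silver nitrate against control) and 0.45 for rol-6 (aged particles against silver nitrate). For pristine particles against control the ranges were −0.07 to 0.14 (dpy-4), −0.1 to 0.15 (dpy-5), −0.21 to 0.07 (sqt-3) and −0.35 to 0.15 (bli-1). For silver nitrate against control they were −0.13 to 0.15 (dpy-4), −0.01 to 0.57 (dpy-5), −0.04 to 1.18 (sqt-1) and −0.02 to 0.31 (sqt-3). Between aged and pristine particles bli-2 ran from −0.2 to 0.19, and against both unaged forms from −0.01 to 0.38. Between aged particles and silver nitrate the ranges were −0.01 to 0.57 (dpy-5), −0.29 to 0.93 (sqt-1) and −0.14 to 1.08 (rol-6). Between pristine particles and silver nitrate they were −0.09 to 0.19 (dpy-4), −0.54 to 0.04 (dpy-5), −0.31 to 0.14 (dpy-13) and −0.26 to 0.12 (dpy-17). The cause of these changes was not tested. The adjusted p for aged particles against both unaged forms ranged from 0.0491 to 0.443 for dpy-4 and from 0.0317 to 0.412 for sqt-3. With the replicate block 0 members were called; in this balanced design it cannot change a difference of group means. The numbers did not pair the arrays by the correlation of their deviations (above 0.1 in 0 of 18 pairs), while the same number was the best match in 25 of 36 cases, a hint from the data and not from the design. The block called 7 probe sets for aged particles against control (2 without it) 10 for silver nitrate against control (30), 14 between aged and pristine particles (25), 37 between aged particles and silver nitrate (57), and 26 for any difference (14). Signals near the floor limit bli-1 and bli-2.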
